A study of Homo sapiens with 2 samples.

Results

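The long arm of human chromosome 17 (17q) carried 541 of the 12688 oestrogen receptor α (ERα) peaks listed in T47D cells. T47D is an established human breast cancer line that expresses the receptor. The 541 peaks are all those of the deposited hg19 list on chromosome 17 that start beyond the centromeric bands, that is after position 25800000. They were set beside the 101 peaks of the short arm (17p, ends before 22200000) and the 11675 peaks of 37 arms of the other autosomes. Another 4 peaks of chromosome 17 lay between its arms and entered no comparison.

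The list comes from 1 library immunoprecipitated with the ERα antibody H-20, called over 1 input library of genomic DNA made with no antibody. Both were made from cells held without steroids for 48 h and then exposed to 10 nM 17β-estradiol for 45 min. No unstimulated cells are compared here, so the values describe occupancy under hormone and no response to it. There is no replicate and the read depth is unknown from the list. All intervals below therefore cover counting error only, no p-value is given, and neighbouring peaks, which are not independent, make the intervals too narrow. No value was corrected for the DNA copy number of T47D cells beyond the authors' use of the input.

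ERα is a nuclear receptor that, once bound by estradiol, attaches to DNA at oestrogen response elements and at sites opened by partner factors, many of them far from promoters. The long arm of chromosome 17 holds several genes well known in breast cancer. Among them are ERBB2, a receptor tyrosine kinase, RARA, a retinoic acid receptor that oestrogen induces in breast cancer cells, BRCA1, a DNA repair gene, and TOB1, an antiproliferative regulator. No hg19 annotation or sequence was used, so no peak was assigned to a gene by annotation. Genes are tied to peaks through the cytogenetic band they share, with gene bands taken from RefSeq promoters of GRCh38.p14. For 5 of the largest clusters the gene known to lie there is also named, from general knowledge and marked as such.

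The letters of the peaks themselves are not shown, for want of an hg19 sequence. Instead, promoters of 3 genes whose bands hold dense ERα windows are printed, to show the core letters that the receptor recognises as they stand in this region. Each was picked because it holds such a core, which 9 of 38 promoters of the listed genes described later do. This share lies under the one of all promoters given below. No interval was computed for it, so no difference is read from these 38 promoters. The bases run 5′ to 3′ on the gene's strand and are the 250 bases before a RefSeq transcript start (GRCh38.p14). Capitals mark matches to the core GGTCA, or TGACC on the other strand, each of 5 bases. An oestrogen response element has one of each, facing each other. RARA has 3 such matches here (plus strand, chr17:40308930-40309179), TOB1 has 1 (minus strand, chr17:50867979-50868228) and MSI2 has 1 (plus strand, chr17:57255601-57255850).
RARA: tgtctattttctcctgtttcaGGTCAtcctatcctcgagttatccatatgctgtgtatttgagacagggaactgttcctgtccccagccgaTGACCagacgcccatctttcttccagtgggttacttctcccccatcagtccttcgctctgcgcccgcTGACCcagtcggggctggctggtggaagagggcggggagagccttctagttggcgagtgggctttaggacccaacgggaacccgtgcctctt
TOB1: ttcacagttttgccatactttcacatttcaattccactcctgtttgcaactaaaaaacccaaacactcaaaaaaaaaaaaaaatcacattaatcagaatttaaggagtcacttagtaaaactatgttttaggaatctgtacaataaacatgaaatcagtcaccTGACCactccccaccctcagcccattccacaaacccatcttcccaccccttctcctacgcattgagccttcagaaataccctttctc
MSI2: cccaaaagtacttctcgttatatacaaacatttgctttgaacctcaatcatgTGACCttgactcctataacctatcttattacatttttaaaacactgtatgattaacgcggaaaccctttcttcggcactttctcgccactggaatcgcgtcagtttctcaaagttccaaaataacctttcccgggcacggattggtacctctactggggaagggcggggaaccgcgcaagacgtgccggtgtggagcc

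Such cores are common. In windows of 300 bases around transcript starts, 13125 of 35116 promoters (37.4%, Wilson 95% interval 36.9 to 37.9%) held one on either strand. The share was 38.2% (35.4 to 41.0%) of 1160 promoters on 17q and 34.5% (30.3 to 38.9%) of 473 on 17p. The interval for 17q includes the share of all promoters. The full palindrome GGTCANNNTGACC, which contains both cores, occurred in 20 promoters in all and in 0 of those on 17q. A match is a string of letters and not a measured site, and no peak was placed on these sequences.

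Peaks were about 2 times as dense on 17q as on the short arm or on the other autosomes. The long arm held 9.77 peaks per Mb (exact Poisson 95% interval 8.96 to 10.6) over 55.4 Mb. The short arm held 4.55 (3.71 to 5.53) over 22.2 Mb and the other autosomes 4.43 (4.35 to 4.51). The ratio of 17q to 17p was 2.15 (exact conditional 95% interval 1.73 to 2.68), and that of 17q to the other autosomes was 2.20 (2.02 to 2.40). The 2 arms of chromosome 17 thus lay apart, and 17p lay within counting error of the rest.

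Among 39 autosomal arms 17q ranked first, but it did not stand clear of the next 2. Arm 19p had 9.22 peaks per Mb (8.06 to 10.5) and arm 20q had 8.95 (7.97 to 10.02). The ratio of 17q to 19p was 1.06 (0.905 to 1.24) and that to 20q was 1.09 (0.946 to 1.26), so both intervals include equality. Against 21q, the fourth arm, the ratio was 1.30 (1.11 to 1.51). The first place is not firm: among peaks at or above the median score of the list, 19p led with 4.96 per Mb against 4.89 on 17q.

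**Figure D1:**
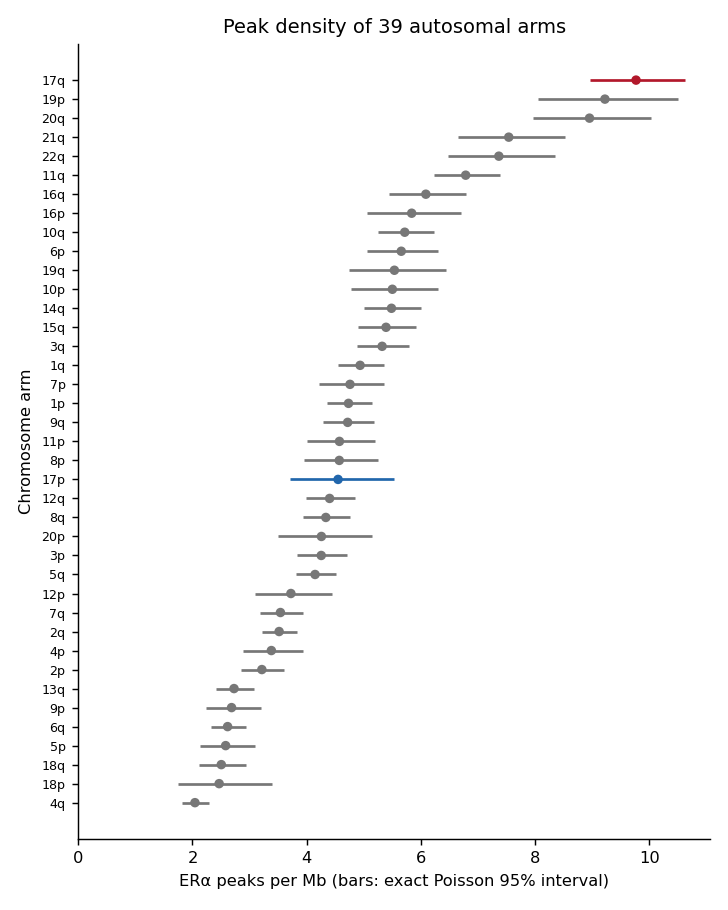
ERα peaks per Mb (x axis) on each of 39 autosomal arms (y axis), with exact Poisson 95% intervals as bars, 17q in red and 17p in blue. The interval of 17q, 8.96 to 10.6, overlaps those of 19p and 20q, whereas 17p lies at 4.55, rank 22.

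Gene content differed little between the arms of chromosome 17. The promoter table gave 578 protein-coding genes on 17q (10.4 per Mb) and 245 on 17p (11.0 per Mb), the fourth and the third highest of 37 arms with entries. Peaks per gene were 0.936 on 17q, 0.412 on 17p and 0.778 over the other autosomes without chromosome 8, which has no entries. The ratio of 17q to 17p was 2.27 (1.83 to 2.84), close to the ratio per Mb. By this measure 17q ranked 8 of 37, and 19p, gene-rich with 0.444 peaks per gene, ranked 35. Across the 37 arms, peaks per Mb and genes per Mb had a Spearman correlation of 0.723, given as a description, since arms share 1 library. The table covers 15843 of 20056 protein-coding genes of RefSeq, and arms were matched between builds by name.

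The excess on 17q was of similar size in each quartile of the deposited peak score. In the 4 score quartiles of the whole list, from low to high, 17q was 2.14, 2.24, 2.25 and 2.18 times as dense as the other autosomes. By share, 271 of its 541 peaks (50.1%, 45.9 to 54.3%) scored at or above the list median of 128.265, where 49.8% of the peaks of the 39 arms did. The difference from the other autosomes was 0.302 percentage points (Newcombe 95% interval -3.99 to 4.60), so no difference in score was detectable, and one of up to 4.60 points is not excluded by this interval. The score is the authors' own and its scale is not stated.

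At the top of the scale, 17 peaks of 17q (3.14%, 1.97 to 4.97%) scored 3100 or more, the value at which scores of this list pile up. Over the 39 arms the share was 2.15%. Of the 17, 16 sat at exactly 3100 and 1 above it. Per Mb, strong peaks were 3.26 times (1.87 to 5.33) as dense on 17q as on the other autosomes, an interval that includes the ratio of all peaks. The short arm had 0 of 101, with a Wilson 95% upper limit of 3.66%. The difference in share between the arms was 3.14 points (-0.704 to 4.97), and per Mb the 17 peaks against 0 gave a ratio with a lower 95% limit of 1.65. The 17 strong peaks lay in 8 bands and were wide, 816 to 2503 bp with a median of 1503 bp, and 13 of them had another peak centre within 10 kb. The 4 in 17q21.2 began at 38477994, 38732196, 39571344 and 39661974, and 4 more lay in 17q25.3.

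The single highest score of the arm, 3212.27, belonged to a peak at chr17:64948110-64949160 in 17q24.2, with another centre 0.812 kb away. The next 9 of the 10 highest all scored 3100 and have no order among themselves. The widest peak of the arm was also one of these, at chr17:75282082-75284584 in 17q25.2, with 2503 bp. The second widest, 2088 bp at chr17:72765635-72767722 in 17q25.1, scored 3087.48. The third, 2076 bp at chr17:39677375-39679450, scored only 182.36, so great width did not always come with a high score.

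Counted in whole 1 Mb windows, the median window of 17q held 7 peaks (quartiles 4 and 11.5). The median was 3 on 17p and 3 on the other autosomes. Of the 55 windows of 17q, 40 (72.7%) held 5 or more peaks, against 35.4% of 2613 windows on the other autosomes. Only 4 held 0 (7.27%), against 18.9%. The higher density of 17q was thus spread over most of the arm.

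Windows of 15 or more peaks numbered 10 on 17q (18.2%), where 5.54% of the 2690 windows of the 39 arms reached that count. Windows of 20 or more numbered 5 (9.09%), against 2.23%. The 4 densest windows together held 135 peaks, 25% of the arm, and the 10 densest held 238 (44%). Without those 4 windows, 406 peaks remained at 7.90 per Mb, which was 1.78 times (1.61 to 1.97) the density of the other autosomes with all their windows. Leaving the same share of densest windows (7.27%) out of both, 190 of them from the other autosomes, gave 2.33 times (2.11 to 2.58). The windows left out held 30 or more peaks on 17q but 13 or more on the other autosomes. Counts kept on 17q were thus dropped from the other side. This ratio therefore cannot show how large the excess was among windows of like count.

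**Figure D2:**
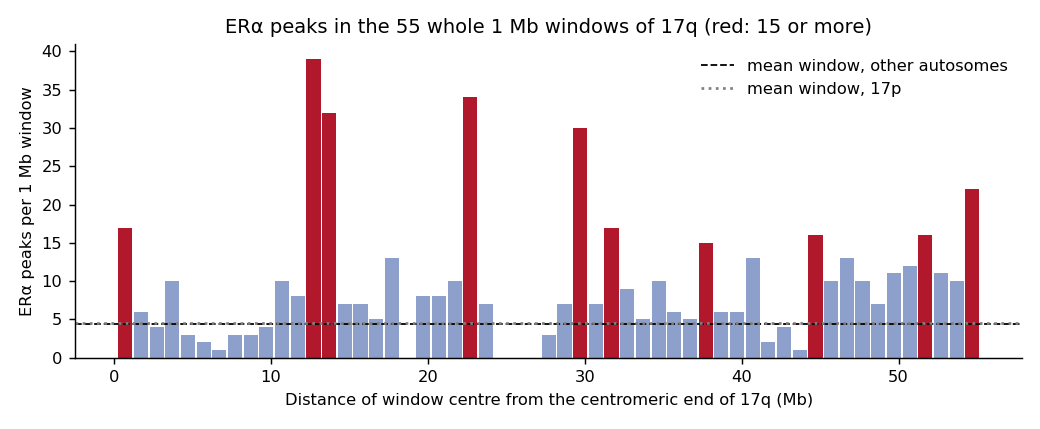
ERα peaks in each of the 55 whole 1 Mb windows of 17q (y axis) by the distance of the window from the centromeric end of the arm (x axis). Red bars hold 15 or more peaks. The dashed line is the mean window of the other autosomes (4.44) and the dotted line, almost upon it, that of 17p (4.59).

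By band, 17q21.2 was the densest, with 73 peaks in 2.5 Mb or 29.2 per Mb (22.9 to 36.7). This was 2.99 times the density of the arm as a whole. Merging peaks whose edges lay within 10 kb lowered that ratio to 1.60, with 10.4 regions per Mb. Its place fell to the fourth, behind 17q21.1, 17q23.1 and 17q25.3 with 13.3, 12.9 and 10.5 regions per Mb. As 17q21.1 and 17q23.1 hold only 4 and 9 regions and 17q25.3 is almost level, this order is not firm. Per gene, 17q21.2 did not stand out. Its 93 genes with a promoter entry, the most of any band, gave 0.785 peaks per gene, against 0.936 over the arm. As listed, next came 17q23.1 with 16 peaks or 22.9 per Mb (13.1 to 37.1), 17q21.33 with 48 or 17.1 (12.6 to 22.7) and 17q25.3 with 89 or 15.1 (12.1 to 18.6). The sparsest was 17q12, with 31 peaks in 6.3 Mb or 4.92 per Mb (3.34 to 6.98), near the density of the other autosomes. In 17q21.2 and 17q21.33, 59 of 73 and 37 of 48 peaks had another centre within 10 kb, whereas in 17q12 only 6 of 31 did.

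Bands that stain lightly with Giemsa, which are as a rule gene-rich, held 10.8 peaks per Mb on 17q and dark ones 8.76. The ratio of light to dark was 1.23 (1.03 to 1.46) on 17q and 1.57 (1.52 to 1.63) on the other autosomes. Against light bands of the other autosomes, those of 17q were 1.91 times (1.70 to 2.15) as dense. For dark bands the ratio was 2.45 (2.15 to 2.79). All grades of dark staining were pooled on both sides, so the dark bands compared need not be of like grade. The densest band, 17q21.2, is one of the dark ones, of the palest dark grade found on 17q. It gave 73 of the 240 peaks in dark bands of 17q, so the dark ratio leans on this gene-rich band.

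Of 44 well-known genes of the arm listed by role, 28 had a promoter entry that gave a band. Of these, 17 (60.7%) fell in the 8 bands denser than the mean of the arm, which hold 47.8% of all 578 genes with entries on 17q. The genes were picked with earlier results on these data known, so the count describes them and supports nothing.

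The 3 receptor genes with a band lay in bands of different density. The density around each gene itself was not measured. RARA lies in 17q21.2 (29.2 peaks per Mb) and THRA, a thyroid hormone receptor, in 17q21.1, where 4 peaks in 0.3 Mb gave 13.3 per Mb (3.63 to 34.1), an interval that includes the mean of the arm. ERBB2 lies in 17q12, the sparsest band. The window from 37000001 to 38000000 held 8 peaks with a highest score of 327.89, whereas the next one held 39. The median window of the arm held 7.

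Signalling and regulatory genes were divided. IGFBP4, a binding protein of insulin-like growth factors, and STAT3, STAT5A and STAT5B, transcription factors downstream of cytokines and prolactin, lie in 17q21.2. RPS6KB1, a ribosomal S6 kinase, shares 17q23.1 with VMP1, an autophagy gene. TOB1 and ZNF652, a zinc finger repressor, lie in 17q21.33. By contrast, MED1, a Mediator subunit that binds nuclear receptors, lies in 17q12, and WNT3 and WNT9B, secreted ligands, in 17q21.32 with 7.60 peaks per Mb. PRKCA, a protein kinase C, lies in 17q24.2 with 8.62.

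Keratins, junction, repair and cell cycle genes lay in bands of both kinds. KRT10 and KRT20, type I keratins, JUP, the junction protein plakoglobin, and TOP2A, a topoisomerase of dividing cells, lie in 17q21.2. TK1, a thymidine kinase, lies in 17q25.3. BRCA1 lies in 17q21.31 with 6.25 peaks per Mb (4.04 to 9.23), and BRIP1, PPM1D, BCAS3 and TBX4 share 17q23.2 with 6.79. MSI2, an RNA-binding protein gene, lies in 17q22, whose 53 peaks gave only 7.16 per Mb although one of its windows was among the densest.

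The densest window, from 38000001 to 39000000, held 39 peaks and was the third densest of the 2690 windows. Of its 39 peaks, 10 lay between 38400001 and 38500000, 7 between 38600001 and 38700000 and 13 between 38700001 and 38800000, while the stretch from 38500001 to 38600000 held 0. The adjoining window from 39000001 held 32, of which 13 lay between 39600001 and 39700000. Their median scores were 157.75 and 172.725, and each held 2 strong peaks. In RefSeq's gene order CDC6, RARA, GJD3, TOP2A, IGFBP4 and TNS4 follow one another, and KRT13, KRT15 and KRT19 do too.

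The window from 48000001 to 49000000 held 34 peaks, 14 of them in its last 100 kb and 7 between 48700001 and 48800000. Only 7 followed in the next Mb, but 6 of those 7 scored at or above the list median and their median was 889.84. The window from 55000001 held 30, and 12 of these lay in its last 100 kb, with a highest score of 3100. Between 55400001 and 55600000 there were 10 further peaks, none above 323.18. The windows on either side held 7 each. Both of these dense windows thus had their densest 100 kb at the end, but most of their peaks lay outside it.

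Other windows of 15 or more differed in score. The window from 80000001 held 22 peaks, 3 of them strong. The window from 57000001 held 17 with a median score of 80.97 and none above 399.66, and only 4 reached the list median. The window from 26000001 held 17 with a median of 93.82 and a highest of 2978.7. Windows from 70000001 and 77000001 held 16 each (highest 2638.68 and 1423.94), and the window from 63000001 held 15 (highest 2655.12). By contrast, all 10 peaks of the window from 73000001 scored below the list median, with a highest score of 101.49; this window was chosen after its values were seen. A high count therefore did not always come with high scores.

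At its very end the arm was dense in peaks. The last 195 kb, from 81000001 to 81195210, is less than a whole window and held 13 peaks. Of these, 11 had another centre within 10 kb and 9 scored at or above the list median, with a highest score of 1158.96. At the other end, the first 200 kb beyond the centromeric bands held 3 peaks, none above 73.56.

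The longest stretch without a peak ran from 49784945 to 53511049 (3.73 Mb), from 17q21.33 into 17q22. It began in the window that follows the hotspot of 17q21.33. The second, from 68680682 to 69885093, measured 1.20 Mb and lay in 17q24.3. The third, from 43980842 to 45129093, measured 1.15 Mb and crossed from 17q21.31 into 17q21.32. Assembly gaps and repeats were not marked, and their part in these stretches was not tested.

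Peaks of 17q were wider than those of either comparison. The median width was 592 bp (95% interval from order statistics 559 to 615), with a range from 254 to 2503 bp. It was 508 bp (479 to 530) on 17p and 503 bp (500 to 507) on the other autosomes. The difference from the other autosomes was 89 bp (55.8 to 112, by combining both intervals). Together with their number, this made 17q peaks cover 0.658% of the arm, against 0.243% on 17p and 0.252% on the other autosomes.

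Score goes with width on 17q (Spearman correlation 0.628 across its peaks, which are not independent), so widths were also compared at like score. In the lowest score quartile the medians were 454.5 bp (434 to 474) on 17q and 398 bp (394 to 403) on the other autosomes. In the second they were 514.5 and 455 bp, and in the third 627 and 529 bp. In the highest quartile they were 817 bp (765 to 930) and 688 bp (679 to 696). The intervals of 17q and the other autosomes did not overlap in any quartile. In the 2 upper quartiles those of 17q and 17p did not overlap either, with 497 and 602.5 bp on 17p.

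As a further measure, chosen after these widths were seen, each peak's width was given as a percentile among peaks of the other autosomes in the same decile of the score. The median of 17q was 74.1 (71.5 to 76.2) and that of 17p was 43.3 (37.9 to 51.4). Arm 20q was highest with 75.2 (70.7 to 78.9), 17q came next and then 11q with 72.6 (68.3 to 76.0). The interval lay wholly above 50 in 11 of the 39 arms, so great width was not particular to 17q. In 17 of 17 bands the median was above 50, from 64.7 in 17q21.31 to 85.9 in 17q21.1, which has 4 peaks. The interval lay wholly above 50 in 9 of the 16 bands with 6 or more peaks.

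At like score, width was much the same in windows of 20 or more peaks and in the rest of the arm. In bp, the median was 627 in windows of 20 or more and between 522 and 598 in the 4 sparser classes. By percentile, the 157 peaks in windows of 20 or more had a median percentile of 74.2 (70.6 to 80.7), and the other 384 had 74.0 (68.9 to 76.2). Peaks without another centre within 10 kb had 72.1 (67.4 to 74.98), and those with one had 76.6 (72.0 to 80.1). The greater width at like score was therefore found in sparse and dense stretches alike.

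**Figure D3:**
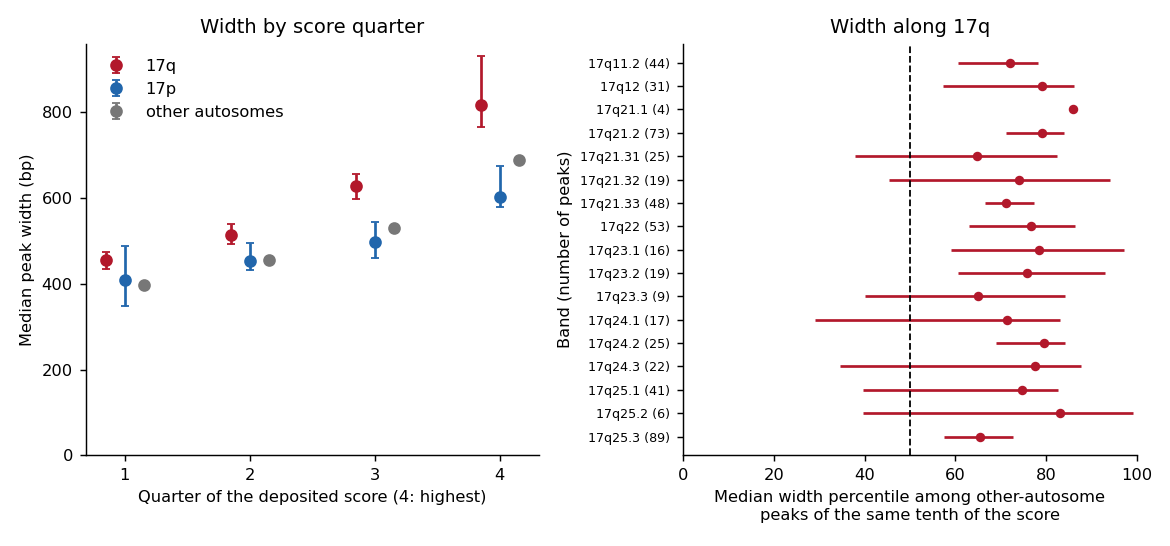
Left, median peak width in bp (y axis) by quartile of the deposited score (x axis) for 17q in red, 17p in blue and the other autosomes in grey, with order-statistic 95% intervals as bars; 17q lies above the other autosomes in each quartile. Right, median width percentile (x axis) in each band of 17q (y axis, with its number of peaks); points lie right of the dashed line at 50 in 17 of 17 bands, and 17q21.1 has too few peaks for an interval.

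Peaks of 17q lay closer together than those of the other autosomes. The median distance to the nearest other centre was 11.2 kb (7.51 to 13.5) on 17q, 22.9 kb (8.06 to 33.8) on 17p and 17.5 kb (16.4 to 18.5) on the other autosomes. Of the 541 peaks, 257 (47.5%, 43.3 to 51.7%) had another centre within 10 kb, where 41.4% of the peaks of the 39 arms did. The difference from the other autosomes was 6.38 percentage points (2.11 to 10.7). Without the 3 densest windows of 17q alone it was -0.755 points, but dropping windows on 1 side lowers that side by construction. With the densest 7.27% of windows left out of both it was 5.85 points (1.11 to 10.8). That setting dropped windows of 30 or more peaks on 17q but of 13 or more on the other autosomes. The share there rises with window count, so this setting lowers the other side more and cannot settle the difference either. The difference from 17p, 4.93 points (-5.67 to 15.05), had an interval that includes 0.

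Compared at like window count, no excess of near centres on 17q was separate from counting error. The shorter pieces at the ends of arms were counted as windows here. In windows of 1 to 4 peaks the share was 24.2% (8 of 33, 12.8 to 41.0%) on 17q and 15.6% (14.3 to 17.0%) on the other autosomes, with intervals that overlap. In windows of 10 to 14 peaks, 39.7% (32.4 to 47.6%) of 17q peaks had a centre within 10 kb, against 50.7% (48.8 to 52.6%) on the other autosomes. In windows of 15 to 19 peaks the shares were 42.0% (31.8 to 52.8%) and 59.4% (56.8 to 62.0%). The last 2 pairs of intervals are separate, with 17q lower. In windows of 20 or more the shares were 71.3% (63.8 to 77.8%) and 65.9% (63.3 to 68.4%), and in windows of 5 to 9 they were 36.0 and 36.9%, with intervals that overlap. As classed, the share on 17q lay between 36.0 and 42.0% in windows of 5 to 19 peaks and was higher only in those of 20 or more. The class of 10 to 14 includes the last 195 kb of the arm, which is far denser than a whole window of that count. There 11 of 13 peaks had a near centre, so the share of this class would be lower without that piece.

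**Figure D4:**
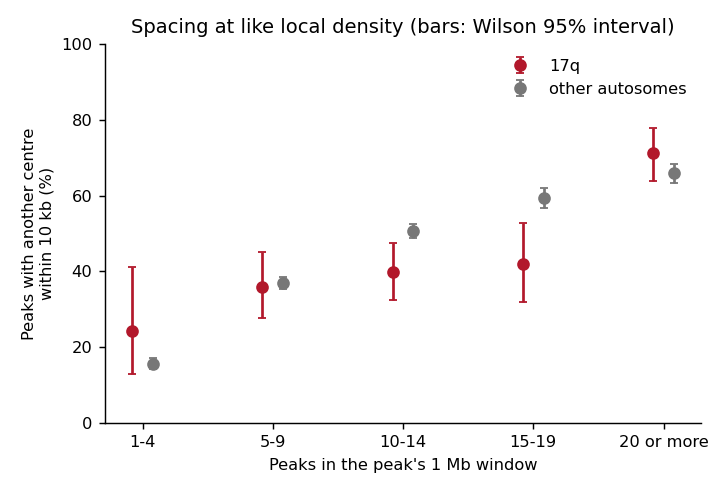
Share of peaks with another centre within 10 kb (y axis, with Wilson 95% intervals as bars) by the number of peaks in the peak's own 1 Mb window (x axis), for 17q in red and the other autosomes in grey. Shorter pieces at the ends of arms are counted as windows, so the class of 10 to 14 includes the last 195 kb of 17q. At 10 to 14 and 15 to 19 peaks 17q lies below, and at 20 or more it lies at 71.3%.

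Peaks far from any other were few. Only 24 of the 541 (4.44%, 2.999 to 6.52%) had no other centre within 200 kb, against 11.5% (11.0 to 12.1%) on the other autosomes. Scores fell with distance: the median was 246.95 among the 119 peaks with a centre within 2 kb, 158.695 among the 138 with the nearest at 2 to 10 kb and 108.53 among the 157 at 10 to 50 kb. It was 85.55 among the 103 at 50 to 200 kb and 79.895 beyond. On the other autosomes the first of these medians was 176.685 and the last 94.275.

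When peaks with edges within 10 kb were joined, 17q had 361 regions, of which 280 were single peaks and 13 held 5 or more. Those 13 clusters contained 92 peaks, or 17.0% (14.1 to 20.4%) of the arm, against 6.72% (6.28 to 7.18%) on the other autosomes and 0 of 101 on 17p. The difference of 10.3 points (7.32 to 13.7) fell to 2.19 (0.582 to 4.41) with edges within 5 kb. Of the 13 clusters, 6 lay in 17q21.2. The clusters described below are the 7 largest.

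The largest, at chr17:39652955-39696998 in 17q21.2, held 13 peaks in 44.0 kb. Its scores ran from 63.49 to 3100 with a median of 182.36, and its 2 highest peaks, 3100 and 2878.67, stood on opposite sides of its middle. General knowledge of the hg19 map, not an annotation used here, puts this cluster among the type I keratin genes KRT13, KRT15 and KRT19, the last a marker of luminal epithelium.

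A cluster of 10 peaks spanned chr17:38463247-38496019, also in 17q21.2. Scores of 3100 and 1729.53 stood out from 8 peaks between 54.99 and 246.95. The same general knowledge puts it in RARA. A second cluster of 10, at chr17:48914859-48943261 in 17q21.33, had 2 high peaks side by side, 3100 and 2177.61, and none of the other 8 was above 502.88. It lies beside TOB1 by the same knowledge.

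Among the 4 clusters of 7 peaks, the profile of scores differed. The one at chr17:72740810-72770332 in 17q25.1 had 3 high peaks, 2025.98, 3100 and 3087.48, and by general knowledge covers NHERF1, a scaffold protein gene that oestrogen induces. The one at chr17:38690703-38712332 in 17q21.2 had 2 above 1000, at 1611.9 and 2620.58. The one at chr17:81122011-81143586 in 17q25.3 had 5 peaks from 529.94 to 1158.96. The one at chr17:57910136-57933327 in 17q23.1, by general knowledge at the end of VMP1 and beside the microRNA gene MIR21, had none above 228.99.

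How far neighbouring peaks are separate sites cannot be read from the list. In the first 2 of these clusters 3 and 1 pairs of neighbours had edges within 500 bp, and in the second the smallest such gap was 2 bp. Over the arm, joining peaks within 500 bp removed 36 of 541 (6.65%, 4.85 to 9.07%), against 5.36% (4.97 to 5.79%) on the other autosomes. After joining within 10 kb the regions of 17q numbered 6.52 per Mb (5.86 to 7.22), against 3.27 (3.20 to 3.34) on the other autosomes.

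**Figure D5:**
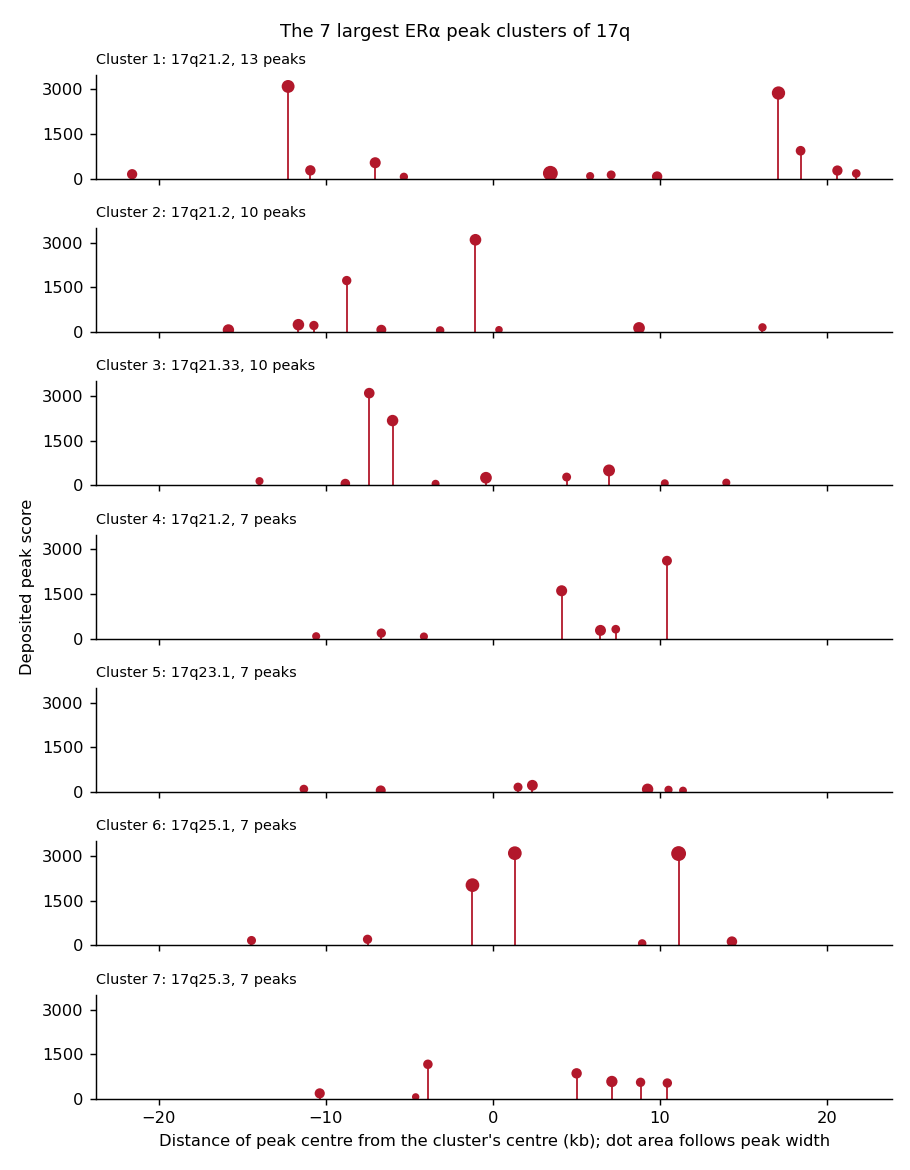
Deposited score (y axis) of each peak in the 7 largest clusters of 17q by its distance in kb from the middle of the cluster (x axis), with dot area following peak width. The 3 clusters at the top each have 1 peak at 3100, and cluster 5, in 17q23.1, has none above 228.99.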

How the data were processed

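The measurement is 1 deposited peak list of an ERα chromatin immunoprecipitation library over an input library. Per the submitters' processing notes, CASAVA 1.8, Bowtie 0.12.9, HOMER and hg19 were named with no role or order, and the peak names carry the prefix of MACS. For the caller's threshold and for the handling of duplicate or multiply mapping reads the sources used here give nothing. The score per peak is the deposited one, and the authors' scale is not stated. Read depth is unknown.

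Starts were printed 1-based. Arms and bands followed hg19 tables of circlize 0.4.16, without centromeric bands and without the 5 acrocentric short arms. Windows were whole megabases inside an arm, and a peak belonged where its centre lay. Where peaks were classed by the count of their window, the shorter pieces at the ends of arms were counted as windows too. Spacing was measured between centres. Intervals (95%) were exact Poisson, exact conditional, Wilson, Newcombe or from order statistics. Those of ratios and medians were tested on simulated data of independent counts and values only. The listed peaks are clustered, so that check does not show that the intervals hold for them. With 1 library of each kind no test between samples was possible.

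The members, the gene list and the comparisons were chosen with earlier results of these data known. Named were windows of 15 or more peaks, the highest-scoring 10 and widest 3 peaks, the 3 longest gaps and the largest clusters (7, owing to ties). Genes of the list without a promoter entry were not tied to a band. RefSeq tables (GRCh38.p14) gave gene names, neighbours, promoters and gene counts per arm and band, and no coordinate was carried between builds. Alternatives are given in the closing section. Values were computed with pandas 2.3.3, NumPy 2.4.6 and SciPy 1.17.1 under Python 3.11.15 and plotted with matplotlib 3.10.9.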

Additional observations from a re-analysis of the deposited data

Results flagged for a closer look

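On sequences of chromosome 17 that the comparisons leave out, 4 peaks were listed on an alternative haplotype sequence and 4 between the arms. The haplotype peaks scored 1164.71, 151.69, 1223.46 and 323.01, and the peaks between the arms scored 54.78, 147.72, 318.56 and 51.37. By general knowledge the haplotype is an alternative version of a part of 17q21.31, where the third longest peak-free stretch of 17q begins. They are given because no comparison uses these sequences, and with 4 peaks each no density is drawn from them.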

How the results depend on the processing

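The settings without the 4 densest windows, and those that leave out the densest 7.27% of windows on both sides, were chosen after seeing the data. The ratio of 17q to the other autosomes (2.20) was 1.99 after merging within 10 kb, 1.92 without peak-free stretches of over 2 Mb, 1.88 without the 3 densest windows and 1.78 without the 4 densest. The median window fell from 7 to 3 peaks per Mb among peaks at or above the median score, where that of the other autosomes was 1. The median width was 703 bp among those peaks, 105 bp above the other autosomes. The difference in the share with a near centre was 11.6 points among those peaks, and -0.755 and -1.96 points without the 3 and 4 densest windows. The difference in clustered peaks was 2.19 points with edges within 5 kb, and 17q21.2 stood 1.60 times over the arm after merging. The other 23 of 34 alternatives stayed within the 95% interval of the reported value (6 to 10 for the median window, 2.34 to 3.76 for the densest band), the 6 for the ratio of 17q to 17p (1.74 to 2.01) among them. Arm 17q ranked first in 3 of 5 settings and second to 19p among peaks at or above the median score and in the top quartile. No paired analysis was possible because the ERα and input libraries number 1 each. Which weak sites reached the list depends on a read depth that is unknown.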
